A study of Mus musculus with 6 samples.

Results

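Heat shock proteins and J-domain cochaperones make up the protein folding machinery of the cell. They were taken here as every gene of the count table whose symbol is Hspa, Hspb, Hspd, Hspe or Hsph with a number, starts with Hsp90, or is Dnaja, Dnajb or Dnajc with nothing but a number after it, pseudogene names left out. The rule found 68 genes among the 24167 of the table and used no measured value. By role, those described here fell into 10 HSP90 and HSP70 genes of the cytosol and nucleus, 3 HSP110 exchange factors, 7 small heat shock proteins, 10 class A and B J-proteins of the cytosol and nucleus, 13 chaperones and J-proteins of the endoplasmic reticulum (ER), 10 of the mitochondria and 14 class C J-proteins of other sites.

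RNA was sequenced from liver metastases in female BALB/c mice aged 6 to 8 weeks, formed by 4T1, a murine breast cancer line of the triple-negative type. In the shZdhhc17 group the injected cells carried a short hairpin RNA against Zdhhc17, a palmitoyltransferase, and in the shSCR group a scrambled hairpin; both hairpins came from lentiviral pLKO.1 vectors and both cell populations were selected with puromycin. In both groups 500000 cells were given by hydrodynamic injection into the tail vein, and the metastases were dissected 10 days later. Each group had 3 libraries, and the labels do not say that these came from separate animals, so p-values measure only the spread between libraries. The hairpin was in the injected cells alone, while a dissected metastasis also holds cells of the host.

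HSP70 proteins bind stretches of unfolded protein that are exposed to water. J-domain proteins bring them their substrates and speed their ATP hydrolysis, and HSP110 proteins release the ADP afterwards. HSP90 proteins act later, on folding clients such as kinases and steroid receptors, and small heat shock proteins hold unfolded proteins without ATP. The inducible cytosolic genes include Hspa1a, Hspa1b, Dnajb1 and Hsph1, classical targets of the heat shock factor HSF1. The ER genes Hspa5 and Hsp90b1 are targets of the unfolded protein response, and Hspa9, Hspd1 and Hspe1 fold proteins in the mitochondrial matrix. Dnajc5, the cysteine string protein, is a palmitoylated J-protein and a known substrate of the ZDHHC17 enzyme.

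Total counts ran from 15832837 to 19186615 per library. Levels are CPM, counts scaled to the library size after TMM normalization (trimmed mean of M values), and values for a gene are listed for libraries 1, 2 and 3 of shSCR and then of shZdhhc17. Zdhhc17 itself stood at 33.7, 32.4 and 34.2 CPM and then at 25.9, 27.8 and 26.0 CPM, without overlap, a log2 fold change of -0.33 ± 0.11 (SE, n = 3 per group; edgeR adjusted p = 0.383; exact two-sided permutation p = 0.1, the smallest that 3 against 3 allows). Hepatocyte transcripts were present in every library: 10 markers summed to 49439, 36599.9 and 18932 CPM and then to 40896.5, 57431 and 48767 CPM, so that library 3 of shSCR stood below the other 5. The 10 markers of 4T1 and mammary carcinoma epithelium summed to 2221 to 3265 CPM in shSCR and 1802 to 3198 CPM in shZdhhc17. Those sums overlapped, with 8 of 10 fold changes negative and 2 positive. Neutrophil markers summed to 237 to 409 CPM and then 514 to 851 CPM, with 9 of 10 fold changes positive, and macrophage markers to 1249 to 1407 CPM and then 1518 to 1658 CPM, with 7 of 10 positive. In both lists the groups did not overlap. A large part of the macrophage sum and of its difference was Lyz2, at 412, 329 and 347 CPM and then 610, 500 and 510 CPM. Cd68 (-0.15), C1qa (-0.20) and C1qb (-0.04) were the macrophage markers with a negative log2 fold change. T and natural killer cell markers summed to 12.3 to 63.7 CPM and then 9.81 to 25.9 CPM, overlapping, with 10 of 10 fold changes negative. B and plasma cell markers (272.8 to 303.5 CPM and then 297.4 to 382.7 CPM, 9 of 9 tested positive) and endothelial markers (354 to 398 CPM and then 328 to 479 CPM, 6 of 10 positive) overlapped too. Most of the B and plasma cell sum came from Xbp1 (238 to 278 CPM and then 273 to 330 CPM), which also belongs to the ER set below. That sum is therefore not a measure of B cells alone. Fibroblast and stellate cell markers summed to 3971 to 7004 CPM and then 3159 to 3865 CPM, without overlap, with 7 of 10 fold changes negative. The part of these host cells in the members' values was not tested. In such bulk tissue, fewer cells of a type and less RNA per cell cannot be told apart.

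None of the heat shock proteins or J-proteins passed the test. Of the 68 genes, 64 had enough counts to be tested, and none of them reached an adjusted p under 0.05 in edgeR's quasi-likelihood test, the smallest being 0.362 for Dnajc12. Among all 15567 genes tested the same threshold called 0%. At an unadjusted p under 0.05, 2 members were lower in shZdhhc17 (Hspa1a and Hspa1b) where 6.71% of all tested genes were, and 2 were higher (Dnajc12 and Dnajc6) where 4.72% of all tested genes were. DESeq2 called 1.22% of the 16658 genes to which it gave an adjusted p and none of the 64 members. By the authors' deposited table, a q under 0.05 was held by 0.844% of all genes and by none of the 68 members, with Dnajc12 at 0.105, Hspa1b at 0.269, Dnajc6 at 0.287 and Hspa1a at 0.358 the lowest.

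The spread between libraries limited what could be detected. For 55 of the 64 tested members the 95% interval of the fold change lay within 2-fold in both directions, and the same held for 10665 of the 15567 genes. Those 55 included all 13 ER genes, all 8 tested class A and B J-proteins and all 3 HSP110 genes. The 9 others held Hspa1a, Hspa1b, Hspa12a, Hspb2, Hspb7, Dnajc28, Dnajc12, Dnajc22 and Dnajc6, which are described by their values below.

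The log2 fold change was below 0 for 23 of the 64 members, against 49.7% of all genes tested, and the median over members was 0.065 against 0.002 for all genes. The groups did not overlap for 3 members that were lower in shZdhhc17 (Dnajb1, Dnajc5 and Hspa1b; 9.62% of all tested genes) and for 10 that were higher (Dnajb14, Dnajc6, Dnajc12, Dnajc24, Dnajc25, Dnajc27, Hspa4l, Hspa9, Hspa12a and Hspd1; 7.48% of all tested genes). That split rested on the scaling: with library totals alone, which moved the median of all genes to -0.128, it was 9 lower (12.6% of all tested genes) and 3 higher (4.06%). Leaving out 1 library, which makes separation easier by construction, gave 5, 7, 5, 7, 4 and 5 lower (without shSCR 1, 2 or 3, then shZdhhc17 1, 2 or 3) and 10 to 19 higher, with 19 without shSCR 1, 18 without shZdhhc17 1, and 16 without shSCR 3 or without shZdhhc17 2. Over all genes tested in those fits, the shares without overlap were 12.3% to 20.3% lower and 10.1% to 18.6% higher, with 16.9% higher without shSCR 1, 18.6% without shZdhhc17 1, 11.6% without shSCR 3 and 10.2% without shZdhhc17 2. At an unadjusted p under 0.05, 8 members were higher without shSCR 1 (7.12% of all genes tested in that fit), 4 without shZdhhc17 1 (6.96%) and 1 without shZdhhc17 3 (2.18%). On the lower side there was 1 member without shSCR 3 (4.23% of all genes), shZdhhc17 1 (6.99%) or shZdhhc17 3 (3.73%), and 0 without shZdhhc17 2 (3.61%).

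**Figure D1:**
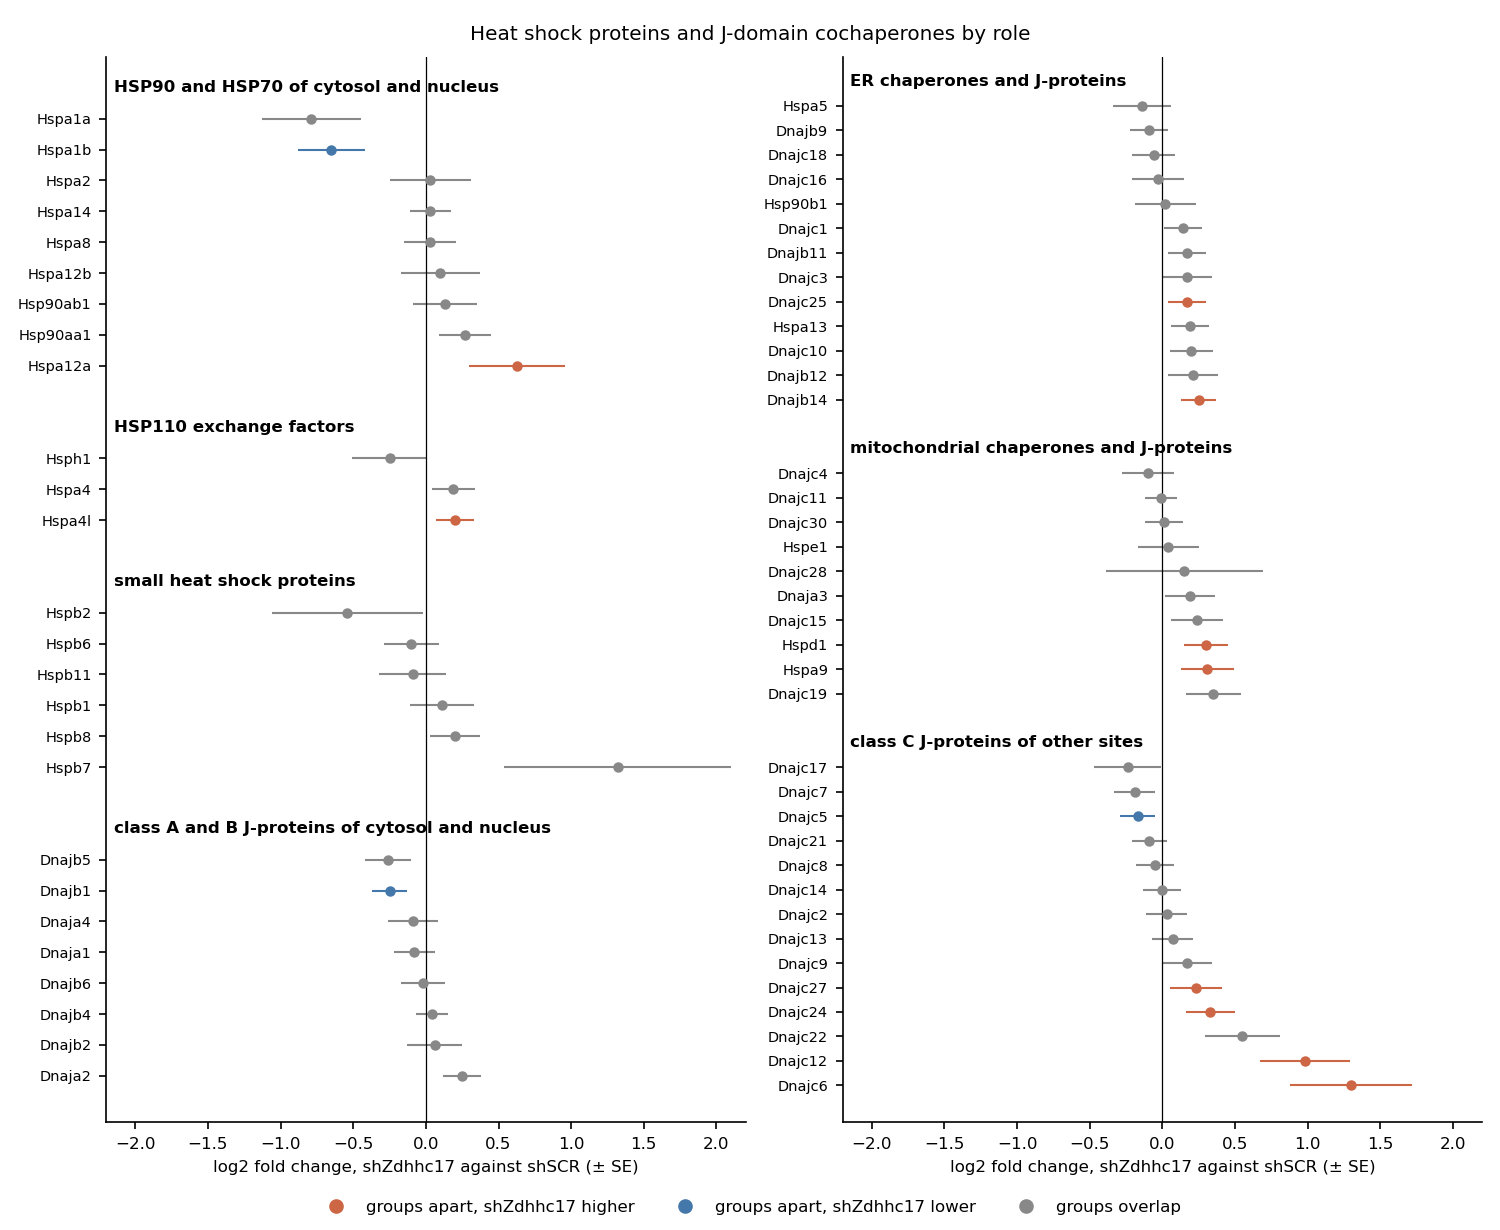
Log2 fold change, shZdhhc17 against shSCR, of the tested members of the 7 role lists; points are edgeR estimates, lines are ± SE, with 3 libraries per group. Colour marks the 10 genes whose libraries were all higher and the 3 whose libraries were all lower in shZdhhc17; the values run from -0.79 (Hspa1a) to 1.32 (Hspb7).

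Together the members held between 0.810% and 0.952% of the counts of a library. Summed, they stood at 8727 ± 345 CPM in shSCR and 9134 ± 275 CPM in shZdhhc17 (SD, n = 3 each), a ratio of 1.05. Per kilobase of exon, the highest mean level over the 6 libraries was that of Hsp90ab1, the constitutive cytosolic HSP90, at 562 CPM per kb. It was followed by the ER chaperones Hspa5 (339) and Hsp90b1 (283), the constitutive HSP70 Hspa8 (211) and the mitochondrial chaperones Hspd1 (107) and Hspa9 (95.0 CPM per kb), and each of these 6 lay above the next in every library. Hspb8 (74.3) and Hsp90aa1 (70.9 CPM per kb) came next, and their order changed between libraries.

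The inducible cytosolic HSP70 genes were the members with the lowest fold changes. Hspa1b stood at 37.1, 39.6 and 65.7 CPM in shSCR and 32.9, 27.2 and 30.4 CPM in shZdhhc17. The groups did not overlap, but library 3 of shSCR lay far above the other 5. Its log2 fold change was -0.65 ± 0.23 (SE, n = 3 per group; 95% interval -1.19 to -0.12; edgeR adjusted p = 0.390), and -0.35 without that library. Hspa1a, its near-identical neighbour, was less abundant, at 8.28, 6.64 and 11.4 CPM and then 3.65, 4.06 and 7.52 CPM. Here library 3 was the highest of both groups and the groups overlapped, with a log2 fold change of -0.79 ± 0.34 (SE, n = 3 per group; edgeR adjusted p = 0.436), -1.18 without shZdhhc17 3 and -0.56 without shSCR 3.

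Hspa1a and Hspa1b share 1716 stretches of 50 bases, 58.8% of those of Hspa1a and 62.3% of those of Hspa1b, so reads could be assigned to either or dropped, and their separate values are uncertain. The counts of both were therefore also summed, a choice made after seeing the data. The sum was 45.4, 46.3 and 77.1 CPM in shSCR and 36.5, 31.2 and 37.9 CPM in shZdhhc17, which do not overlap. The means were 56.3 ± 18.1 and 35.2 ± 3.53 CPM (SD, n = 3 each), and the log2 fold change was -0.68 ± 0.22 (SE; 95% interval -1.2 to -0.15; edgeR adjusted p = 0.377). Without shSCR 3, the library that stands apart, it was -0.38 ± 0.14 (edgeR adjusted p = 0.618), and with any other library left out it lay between -0.81 and -0.59. Markers of fibroblasts and stellate cells were also highest in shSCR 3. They summed to 3971, 4587 and 7004 CPM in shSCR and 3159, 3865 and 3813 CPM in shZdhhc17, which do not overlap. Their part in the Hspa1a and Hspa1b values was not tested. Hspa1l, the testis form next to them, had 1 to 3 counts per library and was not tested.

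The promoters of this pair are shown because both hold the same match to a heat shock factor motif, a choice made after the fold changes were seen. A link between the match and the fold changes was not tested. The sequences are the 250 bases before the RefSeq start sites (build GRCm38.p6, chr17:34972157-34972406 for Hspa1a and chr17:34959239-34959488 for Hspa1b, both on the minus strand), 5′ to 3′, with the match to GAANNTTC in capitals; they differ at 3 of the 250 bases.
Hspa1a: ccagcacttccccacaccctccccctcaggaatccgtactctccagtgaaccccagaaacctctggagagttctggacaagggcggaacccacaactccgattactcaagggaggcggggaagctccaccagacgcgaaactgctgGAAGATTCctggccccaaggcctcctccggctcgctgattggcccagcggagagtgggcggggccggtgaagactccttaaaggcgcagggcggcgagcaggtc
Hspa1b: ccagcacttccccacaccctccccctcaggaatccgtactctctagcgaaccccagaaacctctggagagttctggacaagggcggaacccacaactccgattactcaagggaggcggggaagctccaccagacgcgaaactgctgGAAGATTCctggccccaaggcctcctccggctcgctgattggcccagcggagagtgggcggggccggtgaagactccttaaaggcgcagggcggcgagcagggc

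GAANNTTC, which reads the same on both strands, holds a pair of inverted heat shock units. It was found between 250 bases before and 50 after the start of 12 of the 54 members with a RefSeq window and of 9.04% of the 27025 genes with one. The longer GAANNTTCNNGAA (TTCNNGAANNTTC on the other strand), which contains it, was found for 4 members (Hsph1, Dnajb6, Hspd1 and Hspe1) and 0.662% of all genes. A match is a description of letters and not a shown binding site.

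Other inducible cytosolic genes had small differences. The log2 fold changes of Dnajb1, Hsph1 and Dnaja1 (-0.08) were negative and that of Hsp90aa1 (0.27) was positive. Dnajb1, the main J-protein partner of cytosolic HSP70, stood at 52.2, 58.6 and 59.2 CPM and then 45.5, 45.7 and 51.8 CPM. Every shZdhhc17 library was below every shSCR library, narrowly between shSCR 1 and shZdhhc17 3, for a log2 fold change of -0.25 ± 0.12 (SE, n = 3 per group; edgeR adjusted p = 0.471). Hsph1, the heat-inducible HSP110, stood at 58.3, 101 and 88.3 CPM and then 53.5, 62.2 and 92.7 CPM. Its groups overlapped widely, and its log2 fold change of -0.25 ± 0.26 ranged from -0.51 without shZdhhc17 3 to -0.08 with shSCR 2 or shZdhhc17 1 left out. Dnaja1, a heat-inducible class A J-protein, was at 102, 104 and 102 CPM and then 87.4, 89.5 and 113 CPM, overlapping through shZdhhc17 3.

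The constitutive cytosolic chaperones Hspa8 and Hsp90ab1 overlapped between groups. Hspa8, the housekeeping HSP70, stood at 890, 905 and 905 CPM and then 949, 850 and 955 CPM. The log2 fold change was 0.03 ± 0.18 (SE, n = 3 per group; 95% interval -0.39 to 0.44), and -0.10 under library totals alone. Hsp90ab1 was at 1419, 1620 and 1789 CPM and then 1944, 1637 and 1713 CPM, with overlap and a log2 fold change of 0.13 ± 0.22. Hsp90aa1, the inducible HSP90, was at 297, 237 and 225 CPM and then 345, 264 and 303 CPM, again overlapping, at 0.27 ± 0.18. Hspa12a, an atypical HSP70, was rare, at 1.69, 1.26 and 1.56 CPM and then 1.70, 2.15 and 3.17 CPM; the groups touched without overlapping and the log2 fold change was 0.63 ± 0.33 (SE, n = 3 per group; edgeR adjusted p = 0.491), 0.36 without shZdhhc17 3. Over the 9 tested genes of this class, 2 had a negative and 7 a positive fold change, with a median of 0.033 that was -0.098 under library totals alone.

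Of the other exchange factors, Hspa4 was at 238, 200 and 190 CPM and then 245, 226 and 245 CPM, and Hspa4l at 54.2, 45.7 and 52.4 CPM and then 54.4, 65.7 and 54.9 CPM. Hspa4l separated the groups, narrowly between shSCR 1 and shZdhhc17 1, and Hspa4 did not. The log2 fold changes were 0.19 ± 0.15 and 0.20 ± 0.13 (SE, n = 3 per group).

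The remaining cytosolic class A and B J-proteins overlapped between groups. Dnaja2, the most abundant of them with Dnaja1, was at 125, 109 and 105 CPM and then 143, 125 and 135 CPM, a log2 fold change of 0.25 ± 0.13. Dnajb5 (-0.26 ± 0.16) and Dnaja4 (-0.09 ± 0.17) lay on the other side of 0. Among the 8 tested genes of the class 5 fold changes were negative and 3 positive, between -0.26 and 0.25, with a median of -0.054. Dnajb3 and Dnajb13 had 0 to 3 counts per library and were not tested.

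Small heat shock proteins were led by Hspb8, which works with BAG3 in selective autophagy, at 133, 146 and 126 CPM and then 124, 182 and 159 CPM. Its groups overlapped, with a log2 fold change of 0.20 ± 0.17 (SE, n = 3 per group). Hspb7, a heart and muscle form, had the largest estimate of all members, 1.32 ± 0.78, from 0.491, 0.366 and 1.28 CPM and then 3.84, 0.717 and 0.791 CPM. That value rested on library 1 of shZdhhc17 and was 0.11 without it. In the same library 10 smooth and striated muscle markers summed to 514 CPM against 362 to 474 CPM in the other 5, while the skeletal muscle genes Acta1 and Ckm were at 0.0629 and 0.314 CPM in it; the part of muscle cells in the value was not tested. Hspb2 (-0.54 ± 0.52) overlaps exons of Cryab, so its counts are uncertain. Hspb1 (0.11 ± 0.22, -0.01 under library totals alone and -0.04 without shZdhhc17 3), Hspb6 (-0.10 ± 0.19) and Hspb11 (-0.09 ± 0.23, 0.01 without shSCR 1 or shSCR 3) lay near 0. The list holds every member with an Hspb symbol, Hspb11 included, so its genes may differ in role. The 6 tested genes were evenly divided in sign. Their median of 0.011 had no stable sign, being -0.110 under library totals alone, -0.056 without shZdhhc17 1, -0.014 without shZdhhc17 3 and 0.131 with DESeq2, and Hspb9 had at most 1 count per library.

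Around these members, 31 genes were read as a set. It held Hsf1, Hsf2, cytosolic cochaperones and further chaperones such as Tcp1, Cct2 and, of the ER, Serpinh1. None of the 31 passed the test (smallest edgeR adjusted p = 0.352). At an unadjusted p under 0.05, 2 were lower (Hsf1 and Ahsa2) and 1 was higher (Fkbp5), against 6.71% and 4.72% of all genes, and the median log2 fold change was 0.102. Hsf1, which encodes the heat shock factor, stood at 39.6, 48.0 and 44.8 CPM and then 33.8, 31.1 and 36.4 CPM. Its groups did not overlap, with a log2 fold change of -0.39 ± 0.13 (SE, n = 3 per group; edgeR adjusted p = 0.380). Ahsa2, an activator of the HSP90 ATPase, had -0.32 ± 0.12. Fkbp5, an HSP90 cochaperone and a classical glucocorticoid target, was at 93.7, 106 and 92.3 CPM and then 262, 136 and 137 CPM, a log2 fold change of 0.87 ± 0.27 (SE, n = 3 per group; edgeR adjusted p = 0.352), 0.50 without shZdhhc17 1.

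Serpinh1, the collagen chaperone HSP47 of the ER, was at 484, 429 and 792 CPM and then 411, 357 and 399 CPM, without overlap. Its log2 fold change was -0.55 ± 0.26, and -0.23 without shSCR 3. The 10 fibroblast and stellate cell markers summed to 3971, 4587 and 7004 CPM in shSCR and 3159, 3865 and 3813 CPM in shZdhhc17. Those sums did not overlap either, and 7 of the 10 markers had a negative fold change. The part of these cells in the Serpinh1 value was not tested.

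**Figure D2:**
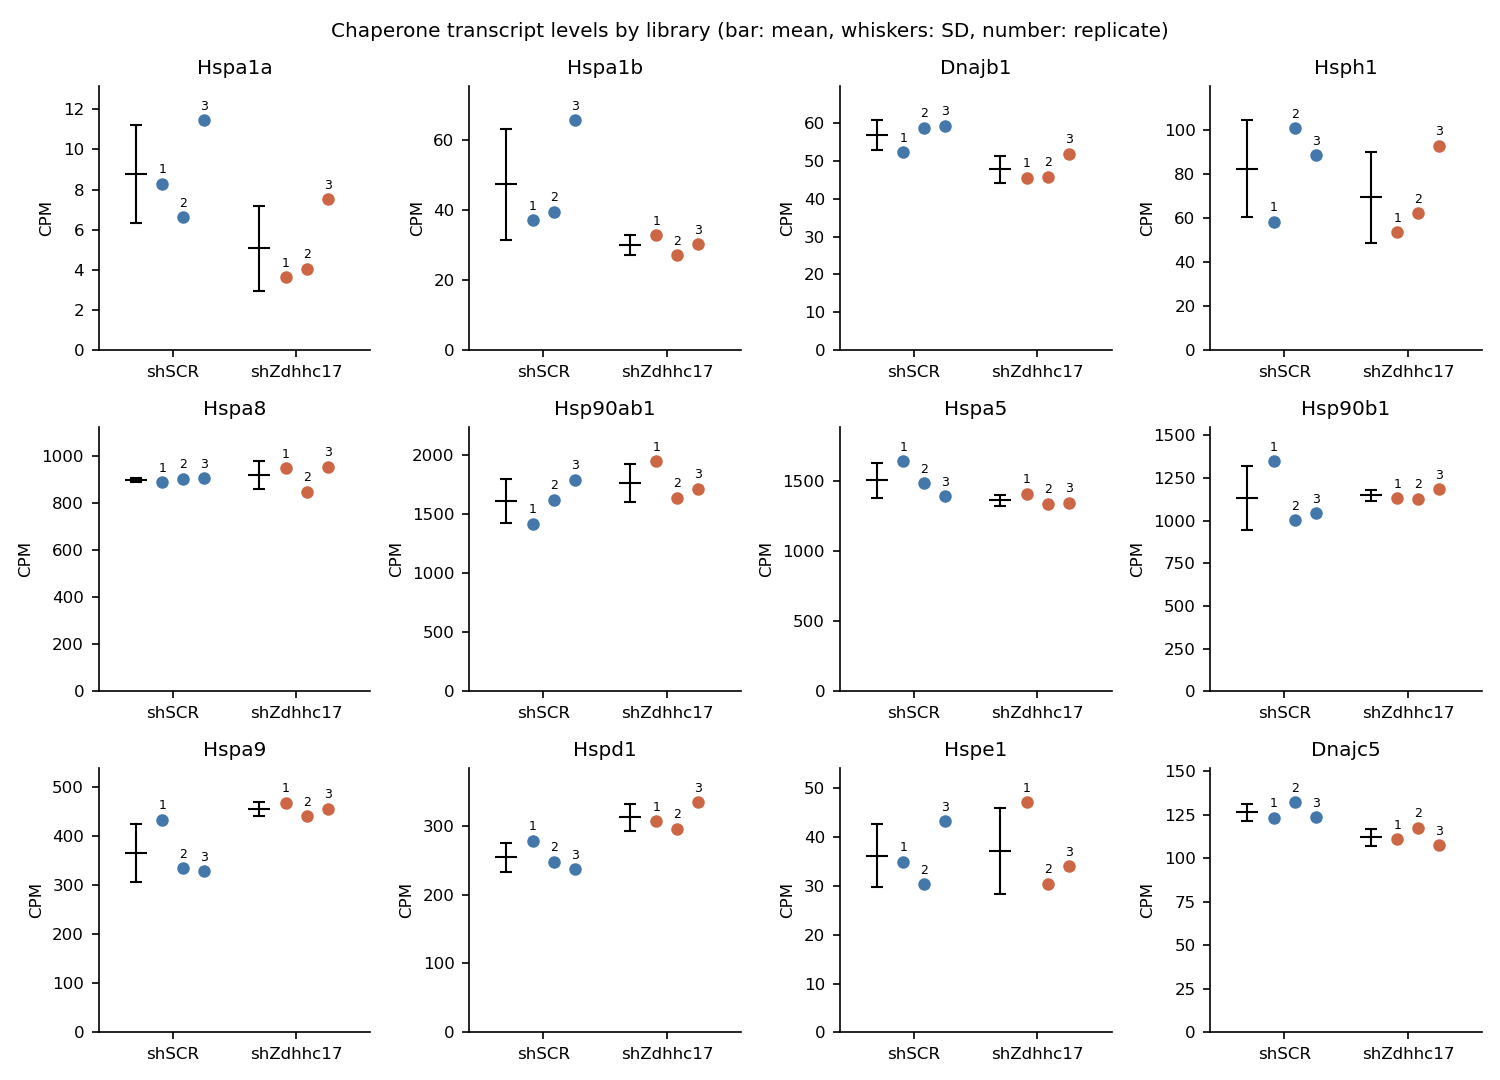
CPM of 12 members in each library (numbered points; shSCR in blue, shZdhhc17 in orange), with the mean and SD of the 3 libraries per group beside them; each axis starts at 0. Hspa1b, Dnajb1 and Dnajc5 were lower in every shZdhhc17 library and Hspa9 and Hspd1 higher, while Hspa8 lay between 850 and 955 CPM in all 6.

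ER chaperones did not separate the groups at the level of their main members. Hspa5 (BiP), the HSP70 of the ER, stood at 1640.4, 1485 and 1391 CPM and then 1409.6, 1338 and 1347 CPM. Its ranges overlapped between shSCR 3 and shZdhhc17 1, and the log2 fold change was -0.14 ± 0.20 (SE, n = 3 per group; 95% interval -0.60 to 0.32; edgeR adjusted p = 0.802). Hsp90b1 (GRP94), the HSP90 of the ER, was at 1347, 1002 and 1045 CPM and then 1130.3, 1129 and 1186 CPM. The shZdhhc17 libraries all lay inside the shSCR range, with a log2 fold change of 0.02 ± 0.21 that was -0.10 under library totals alone, -0.06 without shSCR 2 and -0.03 without shSCR 3. Dnajb11, a J-protein partner of BiP, was at 101, 109 and 121 CPM and then 117, 124 and 134 CPM, also overlapping, at 0.17 ± 0.13.

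The other ER genes sat in a narrow band. Dnajb14, a membrane J-protein, was at 30.1, 30.3 and 29.3 CPM and then 33.8, 38.2 and 34.2 CPM, every shZdhhc17 library above every shSCR library, for a log2 fold change of 0.25 ± 0.12 (SE, n = 3 per group; edgeR adjusted p = 0.471). Dnajc25 also separated the groups, at 0.17 ± 0.13, but narrowly between shSCR 1 and shZdhhc17 1. Hspa13 (0.19 ± 0.13) and Dnajc10 (0.20 ± 0.15), a reductase with a J-domain, overlapped. Across the 13 ER genes 4 fold changes were negative and 9 positive, between -0.14 and 0.25, with a median of 0.168 that was 0.088 without shSCR 3 and 0.036 under library totals alone.

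Promoters of 3 ER members held the ER stress element, and they are shown for that match alone. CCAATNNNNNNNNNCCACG (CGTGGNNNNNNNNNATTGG on the other strand) was found near the start of Hspa5, Hsp90b1 and Dnajc3 and of 0.137% of all genes with a window. Capitals mark the matches; the stretches are chr2:34771840-34772089 (plus strand) for Hspa5, chr10:86705513-86705676 (minus strand) for Hsp90b1, which has 2 matches, and chr14:118937807-118937865 (plus strand) for Dnajc3, in GRCm38.p6 from RefSeq.
Hspa5: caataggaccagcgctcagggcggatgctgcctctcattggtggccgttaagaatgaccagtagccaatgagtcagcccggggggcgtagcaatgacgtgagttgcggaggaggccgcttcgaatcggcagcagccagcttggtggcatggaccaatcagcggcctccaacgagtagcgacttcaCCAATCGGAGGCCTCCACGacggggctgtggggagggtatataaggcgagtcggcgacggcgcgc
Hsp90b1: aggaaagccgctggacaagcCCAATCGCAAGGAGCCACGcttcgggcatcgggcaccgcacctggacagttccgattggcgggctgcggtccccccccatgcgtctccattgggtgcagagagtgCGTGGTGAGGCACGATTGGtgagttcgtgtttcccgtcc
Dnajc3: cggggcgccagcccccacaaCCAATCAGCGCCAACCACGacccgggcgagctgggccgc

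Dnajc3, an inhibitor of the kinases that phosphorylate eIF2alpha and a BiP cochaperone, was at 248, 217 and 186 CPM and then 212, 263 and 259 CPM, with a log2 fold change of 0.17 ± 0.17 (SE, n = 3 per group). The related ATTGGNCCACG (CGTGGNCCAAT on the other strand) was found in 0.0444% of all windows and, among members, in that of Dnajb11.

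Ddit3, which encodes the stress transcription factor CHOP, stood at 29.7, 24.9 and 27.8 CPM and then 12.0, 12.4 and 11.7 CPM, a log2 fold change of -1.19 ± 0.13 (SE, n = 3 per group; edgeR adjusted p = 0.106; q = 3.78e-07 in the authors' deposited table). It belongs to 25 further genes of ER folding and the unfolded protein response, of which none passed edgeR's adjusted threshold and 4 were lower and 0 higher at an unadjusted p under 0.05, against 6.71% and 4.72% of all genes tested. The 3 others of those 4 act in the removal of misfolded proteins or in folding. Derl3 had 10.8, 8.11 and 2.68 CPM and then 1.89, 2.27 and 2.70 CPM, overlapping through shSCR 3, and Syvn1, the ubiquitin ligase HRD1, had 98.0, 151 and 165 CPM and then 91.2, 100 and 99.8 CPM, overlapping through shSCR 1. Creld2, named after its value was seen, had a log2 fold change of -0.36 ± 0.15. P4hb, a protein disulfide isomerase and the most abundant of the set, was at 0.04 ± 0.20, -0.08 under library totals alone and -0.01 without shSCR 3. The set's median was 0.041, with 7 negative and 18 positive fold changes.

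After TMM scaling, both main chaperones of the mitochondrial matrix were higher in every shZdhhc17 library, without passing the test. Over library totals alone this did not hold for Hspa9. It had 7941 of 19186615 counts in shSCR 1 and a lower share, 7361 of 18234406, in shZdhhc17 2. Hspa9 (mortalin), the HSP70 of the matrix, stood at 433, 335 and 328 CPM and then 467, 440 and 455 CPM. Every shZdhhc17 library was above every shSCR library, with library 1 of shSCR close below, and the log2 fold change was 0.31 ± 0.18 (SE, n = 3 per group; edgeR adjusted p = 0.516). Hspd1 (HSP60), which forms the folding chamber, was at 278, 247 and 237 CPM and then 307, 296 and 334 CPM, likewise without overlap, at 0.30 ± 0.15 (edgeR adjusted p = 0.485). Hspe1 (HSP10), the lid of that chamber, was at 34.9, 30.4 and 43.2 CPM and then 47.0, 30.4 and 34.0 CPM, overlapping fully, at 0.04 ± 0.21. Exons of Hspd1 and Hspe1 overlap in the annotation, and no source used here states whether counting used strand, so how shared reads were counted is unknown.

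Hspd1 and Hspe1 are divergent genes with a shared promoter, and the same element lies before both starts. The stretch is chr1:55088039-55088096 in GRCm38.p6 from RefSeq, read on the minus strand for Hspd1 and the plus strand for Hspe1, with 2 overlapping matches to the longer heat shock motif in capitals. Dnajb6, a J-protein that holds back aggregation, has a match to that motif as well (chr5:29735832-29735884, plus strand); its log2 fold change was -0.02 ± 0.15.
Hspd1: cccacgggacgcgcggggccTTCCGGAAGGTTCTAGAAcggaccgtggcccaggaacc
Hspe1: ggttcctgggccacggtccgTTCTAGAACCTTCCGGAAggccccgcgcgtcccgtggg
Dnajb6: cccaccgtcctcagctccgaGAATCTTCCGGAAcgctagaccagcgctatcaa

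The mitochondrial J-proteins Dnajc19, Dnajc15 and Dnaja3 followed with overlapping groups. Dnajc19, of the inner membrane import motor, was at 32.8, 25.9 and 23.0 CPM and then 41.8, 30.8 and 31.3 CPM, a log2 fold change of 0.35 ± 0.19. Dnajc15, its paralog, had 0.24 ± 0.18, and Dnaja3, the partner of mortalin, had 79.4, 66.1 and 50.0 CPM and then 71.6, 75.2 and 76.8 CPM, a log2 fold change of 0.19 ± 0.17. The low values were those of shSCR 2 and 3 in Dnajc19 and of shSCR 3 in Dnaja3. Of the 10 genes 2 fold changes were negative and 8 positive, with a median of 0.174, which was 0.366 without shSCR 1 and 0.115 without shSCR 3. Hepatocyte markers were also lowest in shSCR 3 and next lowest in shSCR 2 (18932 and 36599.9 CPM), and their part in these values was not tested.

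Among 14 further genes of mitochondrial folding and import none passed the test, with 1 higher and 0 lower at an unadjusted p under 0.05, against 4.72% and 6.71% of all genes tested. That gene was Timm23, the channel of the inner membrane, at 17.5, 16.6 and 12.9 CPM and then 23.9, 21.4 and 20.7 CPM. Its groups were apart, with a log2 fold change of 0.49 ± 0.16 (SE, n = 3 per group; edgeR adjusted p = 0.375). Of the outer membrane receptors, Tomm70a (0.35 ± 0.17) also separated the groups and Tomm20 (0.44 ± 0.26) did not. Clpx, an unfoldase and the most abundant of the set, was at 226, 151 and 72.0 CPM and then 183, 122 and 184 CPM, a log2 fold change of 0.12 ± 0.39 that was -0.21 without shSCR 3. The set had 5 negative and 9 positive fold changes and a median of 0.118.

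**Figure D3:**
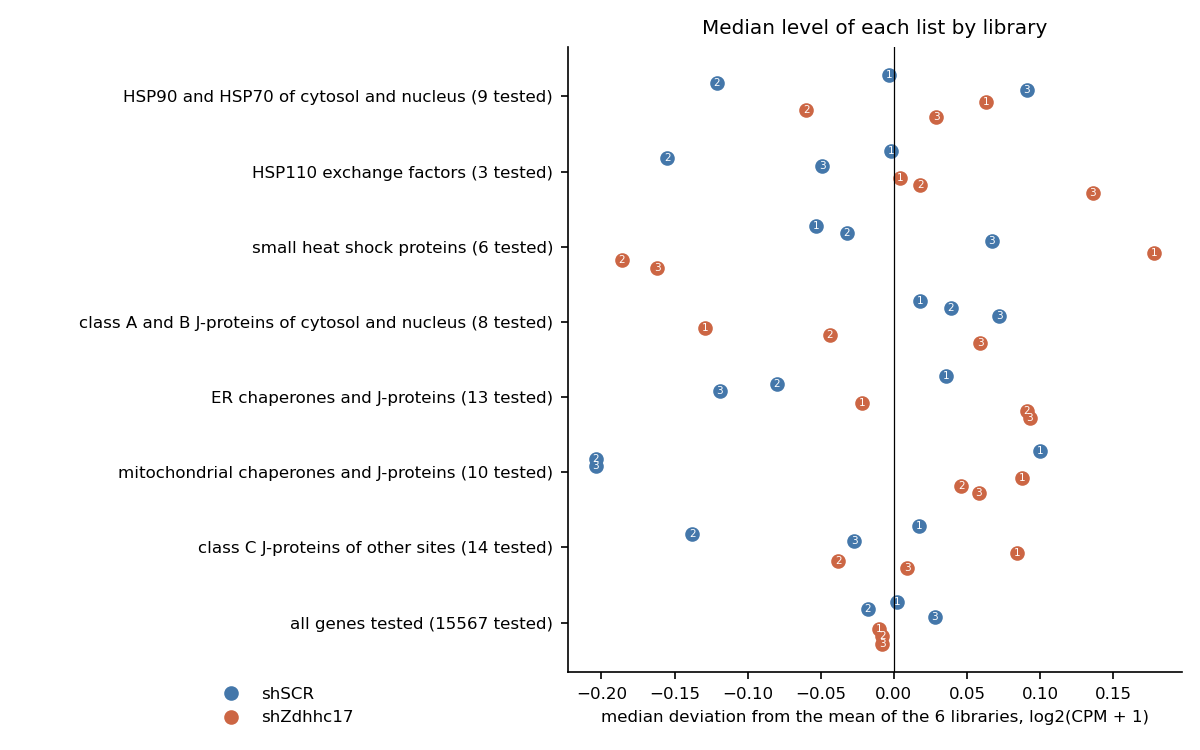
Median over each list's tested genes of the deviation from the 6-library mean, in log2(CPM + 1), per library (numbered; shSCR in blue, shZdhhc17 in orange). The mitochondrial list lay at -0.204 in shSCR 2 and 3 and between 0.046 and 0.1 in the other 4 libraries, and all genes lay between -0.018 and 0.028.

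Class C J-proteins of other sites held the ZDHHC17 substrate and the 2 members that were higher at an unadjusted p under 0.05. Dnajc5, the cysteine string protein, was at 123, 132 and 124 CPM and then 111, 117 and 107 CPM. All shZdhhc17 libraries were below all shSCR libraries, and the log2 fold change was -0.17 ± 0.12 (SE, n = 3 per group; 95% interval -0.44 to 0.10; edgeR adjusted p = 0.574). The transcript was measured here, and its palmitoylation was not.

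Dnajc12, a cochaperone of the aromatic amino acid hydroxylases, stood at 20.1, 21.0 and 11.5 CPM and then 22.4, 41.8 and 39.7 CPM. The groups did not overlap, although shZdhhc17 1 lay close to shSCR 1 and 2. Its log2 fold change was 0.98 ± 0.31 (SE, n = 3 per group; 95% interval 0.27 to 1.70; edgeR adjusted p = 0.362), between 0.75 (without shSCR 3) and 1.22 with 1 library left out. Dnajc22, a membrane J-protein, had a like pattern, at 58.5, 51.3 and 33.5 CPM and then 49.1, 78.4 and 82.2 CPM, but its groups overlapped, for 0.55 ± 0.26 (edgeR adjusted p = 0.471) and 0.34 without shSCR 3. Dnajc28 of the mitochondrial list, named after its values were seen, was at 9.65, 5.54 and 2.06 CPM and then 3.65, 8.48 and 7.06 CPM, a log2 fold change of 0.15 ± 0.54.

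In all 3 of these genes shSCR 3 was the lowest library of its group and shZdhhc17 1 the lowest of the other, as they were for the summed hepatocyte markers. The 3 were set beside the markers after this order had been seen. It held for 9 of the 64 tested members, Dnaja3, Dnajb12, Dnajb14, Dnajc1, Dnajc3 and Hspb8 being the others, and for 20.4% of all genes tested, so it is not particular to them. Of the 10 hepatocyte markers 8 had a positive and 2 a negative fold change and none was at 0 in any library. The part of hepatocyte RNA in the 3 values was not tested.

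**Figure D4:**
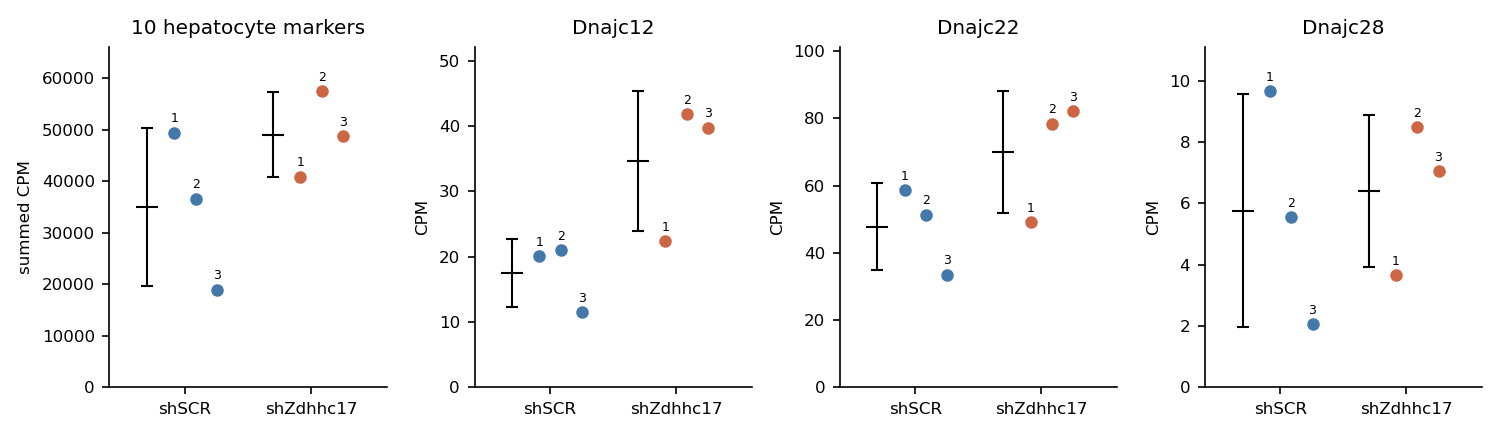
Summed CPM of 10 hepatocyte markers and CPM of Dnajc12, Dnajc22 and Dnajc28 in each library (numbered points), with the mean and SD of the 3 libraries per group; each axis starts at 0. In all 4 panels shSCR 3 is the lowest shSCR library and shZdhhc17 1 the lowest shZdhhc17 library.

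Dnajc6, the auxilin that uncoats clathrin vesicles, was rare, with 14, 11 and 6 counts in shSCR and 19, 18 and 29 in shZdhhc17. In CPM these were 0.763, 0.575 and 0.335 and then 1.20, 1.07 and 1.91, without overlap, for a log2 fold change of 1.30 ± 0.42 (SE, n = 3 per group; 95% interval 0.32 to 2.29; edgeR adjusted p = 0.370). Dnajc24, which acts in diphthamide synthesis, also separated the groups at low levels, 10.2, 8.58 and 8.09 CPM and then 10.9, 10.3 and 12.5 CPM, at 0.33 ± 0.17. Its exons overlap those of Dcdc5 in the annotation, so its counts are uncertain. Dnajc7, which binds both HSP70 and HSP90, was at 114, 117 and 133 CPM and then 118, 94.9 and 107 CPM, overlapping, at -0.19 ± 0.14. The 14 genes of the class had 6 negative and 8 positive fold changes with a median of 0.052, -0.004 without shZdhhc17 1 and -0.078 under library totals alone.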

How the data were processed

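Poly(A) RNA of 6 liver metastasis samples was sequenced with a strand-specific kit, per the labels' protocols. The authors deposited whole-number counts per gene; the submitters' processing notes name FastQC 0.11.8, STAR 2.6.1, HTSeq, DESeq2 1.34.0 and build GRCm39, with no strand setting. The deposited table also holds the authors' log2 fold changes, p-values and q-values, used only where named.

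Counts of all 24167 genes were filtered with edgeR's filterByExpr (15567 kept), scaled by TMM and fitted with edgeR 4.0.16 (glmQLFit, robust; glmQLFTest, two-sided) in R 4.3.3, with Benjamini-Hochberg adjustment over all genes tested and a threshold of 0.05. All 6 libraries entered, 3 per group, with no covariate. The common biological coefficient of variation was 0.235 with 4 residual degrees of freedom. The total counts of 15832837 to 19186615 per library left counting error small for abundant genes but not for rare ones. Besides Dnajc6, the rare tested genes included Hspb7 (7 to 61 counts per library), Hspa12a (24 to 48), Hspb2 (24 to 92), Dnajc28 (37 to 177) and Derl3 (30 to 198). The fit was tested on simulated counts. Alternatives were DESeq2 1.42.0 (test, size factors), limma 3.58.1 (voom), library totals, other filters, removal of the ribosomal gene Rn18s-rs5, non-robust estimation, a replicate block and leaving out each library.

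The members and lists were chosen with earlier results of these data known. Named genes are Zdhhc17, Dnajc5, Ddit3, members that failed the filter, and per member list the 5 with the smallest p and the 2 with the highest mean CPM (3 and 1 in the other lists). Hspe1, Dnajc3, Dnajb6, Dnajc28 and Creld2 were given values outside this rule, after these were seen. Exon lengths came from GENCODE M21 (GRCm38) by gene ID for all 68 members, and promoter windows from RefSeq (GRCm38.p6) by symbol for 54. By the GENCODE annotation, exons of further members also overlap other genes. They include Hspa12a (Eno4), Dnajc25 (Gm20503), Dnajc19 (Fxr1) and Dnaja3 (Coro7 and Vasn), so counts of such members are uncertain too. No coordinate of the files was converted. Hspb3, Dnajb7 and Dnajb8 were listed but not analysed here. Gene set results were not used, and 1 member, which is in the counts over all members, is not reported here.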

Additional observations from a re-analysis of the deposited data

How the results depend on the processing

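No member passed the adjusted threshold under any of the 15 alternatives, nor did Hspa1a and Hspa1b when summed, with all 6 libraries or with 1 left out. With DESeq2 size factors 1 member was lower at an unadjusted p under 0.05 (6.44% of all genes tested), where 2 were in the fit reported (6.71%). With library totals alone, 9 members were lower and 3 higher without overlap, and the medians were -0.077 for all members, -0.098 for cytosolic HSP90 and HSP70, 0.069 for HSP110, -0.110 for small heat shock proteins, -0.183 for class A and B J-proteins, 0.036 for ER genes, 0.064 for mitochondrial genes and -0.078 for class C J-proteins, beside -0.128 for all genes. With 1 library left out, members at an unadjusted p under 0.05 numbered 0 to 2 lower and 1 to 8 higher. Over all genes tested in those fits, the shares were 3.61% to 11.1% lower and 2.18% to 7.12% higher. Members without overlap then numbered 4 to 7 lower and 10 to 19 higher, with the shares of all genes given above. The medians then ranged from 0.109 to 0.253 for HSP110, 0.088 to 0.196 for ER genes and 0.115 to 0.366 for mitochondrial genes. The cause was not tested, beyond the easier separation of fewer libraries. Zdhhc17 kept its sign throughout, between -0.47 and -0.31. Ddit3 passed the threshold in DESeq2 (adjusted p = 3.78e-07).

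Deviations from the group mean had correlations of -0.059, 0.315 and -0.046 between same-numbered libraries, and of -0.403 to 0.301 between differently numbered ones. With 3 libraries per group these values cannot exclude pairing. The numbers were not taken as pairs in the fit reported. The fit with a replicate block called 0 members, with a median of 0.066. At an unadjusted p under 0.05 it had 2 members lower (6.48% of all genes tested) and 3 higher (3.94%). With 3 libraries per group, the 95% interval reached beyond 2-fold for 9 of the 64 tested members.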
